A study of Rattus norvegicus with 10 samples.

Results

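The genes described here are 10 regulators of growth arrest and the cell cycle in the rat hippocampus: the kinase inhibitors Cdkn1a and Cdkn1b, the cyclins Ccnf, Ccnd1 and Ccnd2, the phosphatase Cdc14a, the stress sensors Gadd45a, Gadd45b and Gadd45g, and the antiproliferative factor Btg2. Each was represented by 1 row of the mRNA count matrix, the row with the highest mean count among those whose RefSeq transcript maps to the symbol, so that 10 of 32041 rows are described. Cdkn1a, Ccnf and Cdc14a were selected on their higher measured counts in the stimulated animals, and their difference between the groups is therefore given as values with no test. The other 7 genes were not picked in this way and were tested, although earlier results of these data were known when they were chosen.

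The mRNA came from male Sprague-Dawley rats, an outbred strain, all of which had a bipolar electrode placed in the left lateral amygdala and screw electrodes over the skull under isoflurane and butorphanol. In the stimulated group (5 rats) current of 400 µA at 60 Hz was passed for 30 min to evoke status epilepticus, a long self-sustained seizure that was ended with diazepam (20 mg/kg), and spontaneous seizures, looked for with video EEG during 2 weeks at the end of the experiment, were present in each animal per the study's methods. The age-matched sham group (5 rats) carried the electrodes and received no current, and no diazepam is described for it. At 3 months the CA3 field and dentate gyrus of the left hippocampus were taken from each rat separately, although the tissue label reads dorsal hippocampus. Sham animals are called rats 1 to 5 and stimulated animals rats 6 to 10 (stimulated replicates 1 to 5).

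Cells enter division when cyclin D with its kinases phosphorylates the retinoblastoma protein and frees E2F transcription factors. p21 (Cdkn1a) and p27 (Cdkn1b) bind cyclin-kinase complexes and stop this step, p21 largely after stress and p27 in resting cells. The GADD45 proteins respond to stress, bind p21 and PCNA, activate the stress kinase MAP3K4 and take part in active DNA demethylation. Most cells of the adult hippocampus are neurons and glia that no longer divide, with progenitors in the dentate gyrus, and several of these genes are also known there as genes switched on by neuronal activity.

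Libraries held 13552309 to 24086059 aligned counts, and the reads left unaligned made up 32.01% to 45.14% of a library, with the 3 highest shares in stimulated rats 8, 9 and 10. Levels are given as CPM, that is counts brought to 1 library size by trimmed mean (TMM) factors, which do not allow for transcript length, so a gene is compared only with itself between rats. The 10 genes had between 37 and 2070 counts in each library, and all of them passed the filter on low counts. In sham rats the counting error alone was 11.3% to 13.5% for Cdkn1a, Ccnf, Cdc14a, Gadd45a and Gadd45g and at most 7.32% for the others. Differences are log2 fold changes (positive where stimulated rats were higher) with the standard error (SE) of the edgeR fit over all 22447 features tested. The median of all these features was 0.01.

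Promoter sequences are shown for Cdkn1a and the 3 Gadd45 genes, which were highest in stimulated rat 7 or 9, and for Btg2, which was not. That of Ccnf, also highest in rat 9, is not shown and held none of the elements marked below. RefSeq (GRCr8) windows that run from 250 bases before to 50 bases after a start site were found for 8 of the 10 genes. They are printed 5′ to 3′ on the strand of the gene. Capitals mark cAMP response elements (TGACGTCA, or its shorter core TGACG, which reads CGTCA on the other strand), the E-box CACGTG and the TATA box TATAAA.
Cdkn1a, chr20:7150682-7150981, plus strand: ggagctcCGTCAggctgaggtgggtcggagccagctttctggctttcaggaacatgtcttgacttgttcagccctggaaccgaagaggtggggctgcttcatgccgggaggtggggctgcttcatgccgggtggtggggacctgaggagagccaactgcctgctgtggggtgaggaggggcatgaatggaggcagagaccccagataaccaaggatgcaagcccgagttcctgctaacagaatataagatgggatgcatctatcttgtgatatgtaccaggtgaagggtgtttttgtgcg
Gadd45a, chr4:97486750-97487049, minus strand: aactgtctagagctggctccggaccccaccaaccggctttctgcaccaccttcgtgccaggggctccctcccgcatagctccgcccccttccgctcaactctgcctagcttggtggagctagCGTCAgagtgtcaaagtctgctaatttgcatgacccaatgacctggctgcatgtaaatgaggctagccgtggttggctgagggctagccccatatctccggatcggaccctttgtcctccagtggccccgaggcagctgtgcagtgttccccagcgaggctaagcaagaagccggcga
Gadd45b, chr7:9430669-9430968, minus strand: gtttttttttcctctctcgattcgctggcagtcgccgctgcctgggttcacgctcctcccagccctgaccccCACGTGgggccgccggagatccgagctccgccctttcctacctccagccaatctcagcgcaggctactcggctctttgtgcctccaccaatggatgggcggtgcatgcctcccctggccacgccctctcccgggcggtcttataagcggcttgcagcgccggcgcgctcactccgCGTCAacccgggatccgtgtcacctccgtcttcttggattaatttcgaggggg
Gadd45g, chr17:13530302-13530601, minus strand: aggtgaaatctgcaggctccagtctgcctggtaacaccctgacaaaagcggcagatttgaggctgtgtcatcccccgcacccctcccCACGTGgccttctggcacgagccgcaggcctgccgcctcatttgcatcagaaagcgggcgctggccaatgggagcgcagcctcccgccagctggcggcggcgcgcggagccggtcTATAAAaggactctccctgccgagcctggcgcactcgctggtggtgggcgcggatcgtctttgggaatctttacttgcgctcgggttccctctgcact
Btg2, chr13:48087641-48087940, minus strand: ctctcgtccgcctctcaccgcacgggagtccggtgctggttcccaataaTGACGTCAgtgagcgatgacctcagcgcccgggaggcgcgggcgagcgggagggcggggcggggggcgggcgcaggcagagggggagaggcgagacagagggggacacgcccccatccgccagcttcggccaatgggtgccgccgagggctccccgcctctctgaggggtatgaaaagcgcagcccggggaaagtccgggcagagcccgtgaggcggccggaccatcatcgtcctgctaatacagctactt

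The core TGACG stood in 5 of the 8 windows (Cdkn1a at −243 from the start site, Gadd45a at −128, Gadd45b at −3, Btg2 at −201 and Cdkn1b at −92) and in 21.2% of all 33469 windows. The complete TGACGTCA, which contains that core on both strands, was found in Btg2 alone of the 8, and in 1.83% of all windows. Gadd45b (−178) and Gadd45g (−163) held the E-box CACGTG, found in 6.42% of windows, and Gadd45g also held TATAAA at −48, found in 14.2%. Among the remaining motifs searched on both strands, CCAAT occurred in 7 of the 8 windows and 37.5% of all windows, GCGNGGGCG, the site of EGR factors, in Ccnf and Btg2 and 4.98%, and TTTGAA, an element of mitotic genes, in Ccnf and 18.35%. The AP-1 site TGANTCA (7.33% of windows), the CArG box (1.64%), the E2F sites TTTCCCGC (0.974%) and TTTGGCGC (0.493%) and the FOXO site GTAAACA (3.78%) occurred in none of the 8. The 8 windows held 56.7% to 69.7% G and C, against a median of 51.7% over all windows. The shares of all windows were not matched for this, so a count above them is not read as an excess. A match describes the letters in a window of 300 bases and says nothing of binding.

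Cdkn1a encodes p21, the inhibitor of cyclin-dependent kinases that holds cells before DNA synthesis. Sham rats 1 to 5 had 4.07, 6.64, 3.32, 3.72 and 3.48 CPM, and stimulated rats 6 to 10 had 5.16, 30.7, 7.15, 33.9 and 13.3 CPM. Rats 9 and 7 stood far above the rest, rat 10 lay between, and rats 6 and 8 were near the sham range. Rat 6 was below sham rat 2, so the groups overlapped, with 4 of 5 stimulated rats above the highest sham animal. The sham mean was 4.25 ± 1.37 CPM and the stimulated mean 18.0 ± 13.4 CPM (SD, n = 5 per group here and below), a log2 fold change of 2.11 (SE 0.46). It stayed between 1.75 (without rat 9) and 2.33 when any 1 rat was left out.

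Ccnf encodes cyclin F, which binds no kinase and serves as the substrate-binding part of an SCF ubiquitin ligase. Its values were 2.50, 3.28, 2.67, 3.51 and 2.35 CPM in sham rats 1 to 5 and 3.85, 23.4, 3.38, 39.8 and 14.2 CPM in stimulated rats 6 to 10. The order of the stimulated rats was almost that of Cdkn1a, with rat 9 highest, then rats 7 and 10, while rat 8 was inside the sham range and rat 6 just above it. Group means were 2.86 ± 0.51 CPM (sham) and 16.9 ± 15.2 CPM (stimulated). Its log2 fold change was 2.57 (SE 0.56), or 1.97 (without rat 9) to 2.81 with each rat left out. The coefficient of variation was 17.8% in sham and 90.02% in stimulated rats.

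Cdc14a encodes a dual-specificity phosphatase related to the yeast enzyme of mitotic exit, and its pattern was of another kind. Sham rats 1 to 5 had 3.78, 4.27, 2.56, 3.43 and 3.77 CPM, and stimulated rats 6 to 10 had 5.97, 5.71, 7.47, 5.46 and 7.22 CPM. Every stimulated rat was above every sham rat, and rats 8 and 6, which were near the sham animals for Cdkn1a and Ccnf, ranked 1 and 3 among the stimulated. The sham mean was 3.56 ± 0.64 CPM and the stimulated mean 6.37 ± 0.92 CPM, a log2 fold change of 0.84 (SE 0.17) that stayed between 0.74 and 0.90 with each rat left out. The coefficient of variation was 17.9% in sham and 14.4% in stimulated rats. A second row of Cdc14a, with fewer counts, averaged 0.886 ± 0.329 CPM in the sham and 2.04 ± 0.60 CPM in the stimulated group (log2 fold change 1.19, SE 0.31). In that row rat 6 (1.36 CPM) was just below sham rat 1 (1.40 CPM), so the groups overlapped. The rows are transcripts of 1 gene, and how reads shared between them were counted was not stated.

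**Figure D1:**
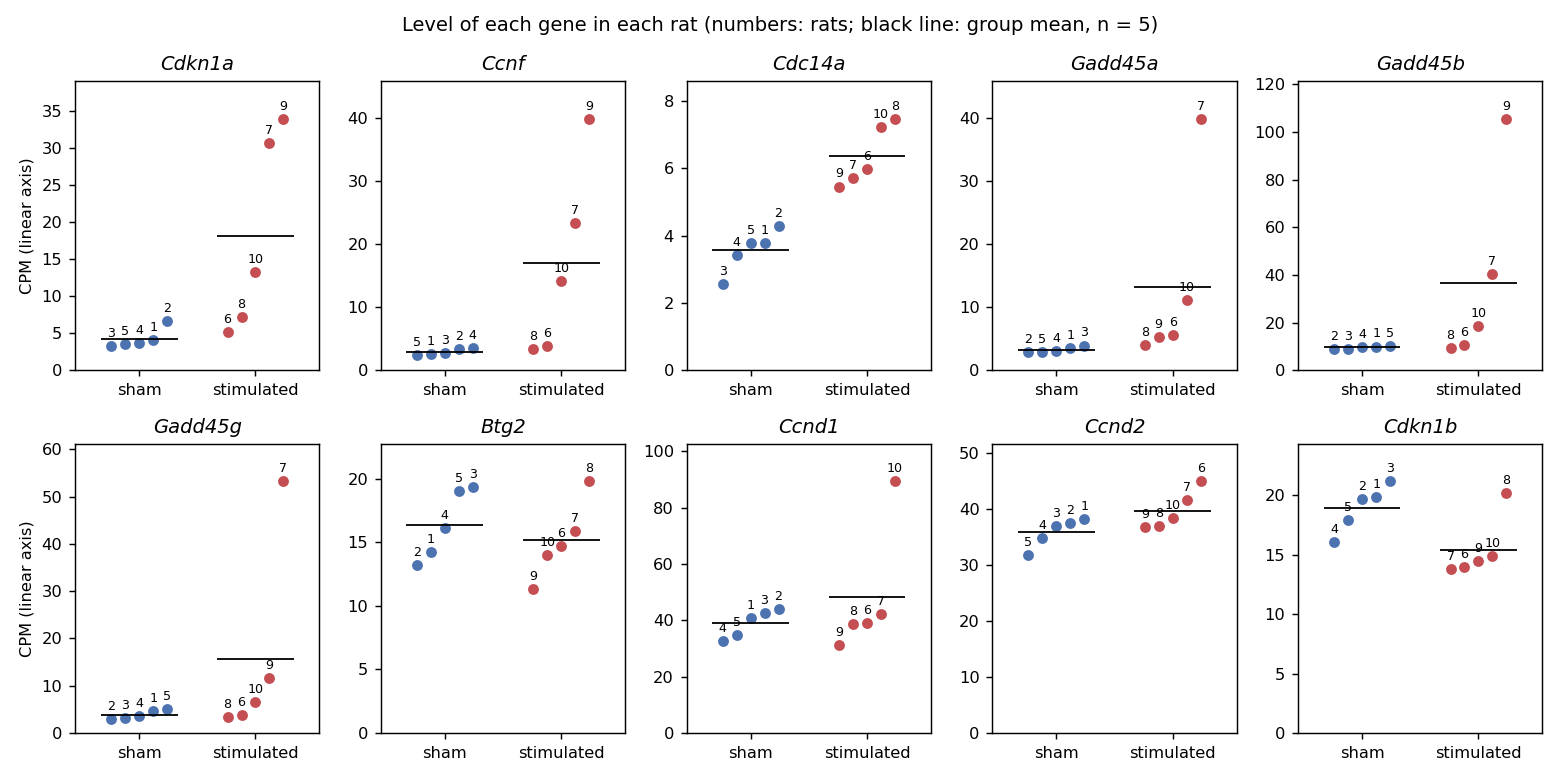
Level of each of the 10 genes in each rat, in CPM on linear axes that start at 0 and differ between panels; points are rats, numbered, and black lines are group means (n = 5). For Cdkn1a, Ccnf and the 3 Gadd45 genes the stimulated points spread upward with rats 7 and 9 mostly on top, up to 106 CPM for Gadd45b, whereas the stimulated points of Cdc14a lie together at 5.46 to 7.47 CPM, above all sham points.

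The 3 GADD45 genes encode small nuclear proteins that respond to stress and slow the cycle. Gadd45a, the member first known for its response to DNA damage, had 3.55, 2.82, 3.92, 2.98 and 2.89 CPM in sham rats 1 to 5 and 5.61, 39.9, 3.96, 5.30 and 11.1 CPM in stimulated rats 6 to 10. Rat 7 was far above all others, and the groups did not overlap, although rat 8 was almost level with sham rat 3. The sham mean was 3.23 ± 0.48 CPM and the stimulated mean 13.2 ± 15.2 CPM. The log2 fold change was 2.03 (SE 0.55, 95% interval 0.85 to 3.21), and the edgeR quasi-likelihood test gave an adjusted p of 0.376. Without rat 7 the log2 fold change was 1.00. In an exact permutation test over all assignments of rats to groups (two-sided, on log2 CPM) p was 0.00794, the smallest this design can give. That p follows from the lack of overlap and adds nothing to it.

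Gadd45b is the family member best known as an activity-induced gene of dentate granule cells. Sham rats 1 to 5 were close together at 9.95, 8.93, 9.09, 9.88 and 9.97 CPM, and stimulated rats 6 to 10 had 10.5, 40.3, 9.13, 106 and 18.5 CPM. Here rat 9 was highest and rat 7 came next, rat 6 was barely above the sham animals, and rat 8 was inside their range. Group means were 9.56 ± 0.51 CPM (sham) and 36.8 ± 40.4 CPM (stimulated). Its log2 fold change was 1.94 (SE 0.55, 95% interval 0.76 to 3.12) with an adjusted p of 0.380 in the edgeR test. Without rat 9 it was 1.04. The exact permutation p was 0.0556.

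Gadd45g had 4.60, 2.90, 3.21, 3.56 and 5.03 CPM in sham rats 1 to 5 and 3.71, 53.2, 3.32, 11.5 and 6.45 CPM in stimulated rats 6 to 10. Rat 7 was again far above the rest, and rats 6 and 8 were within the sham range, so 3 of 5 stimulated rats were above all sham animals. The sham mean was 3.86 ± 0.91 CPM and the stimulated mean 15.6 ± 21.3 CPM. The log2 fold change was 2.02 (SE 0.65, 95% interval 0.61 to 3.42), the adjusted p of the edgeR test was 0.399 and the exact permutation p was 0.119. Without rat 7 the log2 fold change was 0.68, and the unadjusted edgeR p was no longer under 0.05. In the limma-voom fit the log2 fold changes of Gadd45a, Gadd45b and Gadd45g were 1.49, 1.33 and 1.22.

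**Figure D2:**
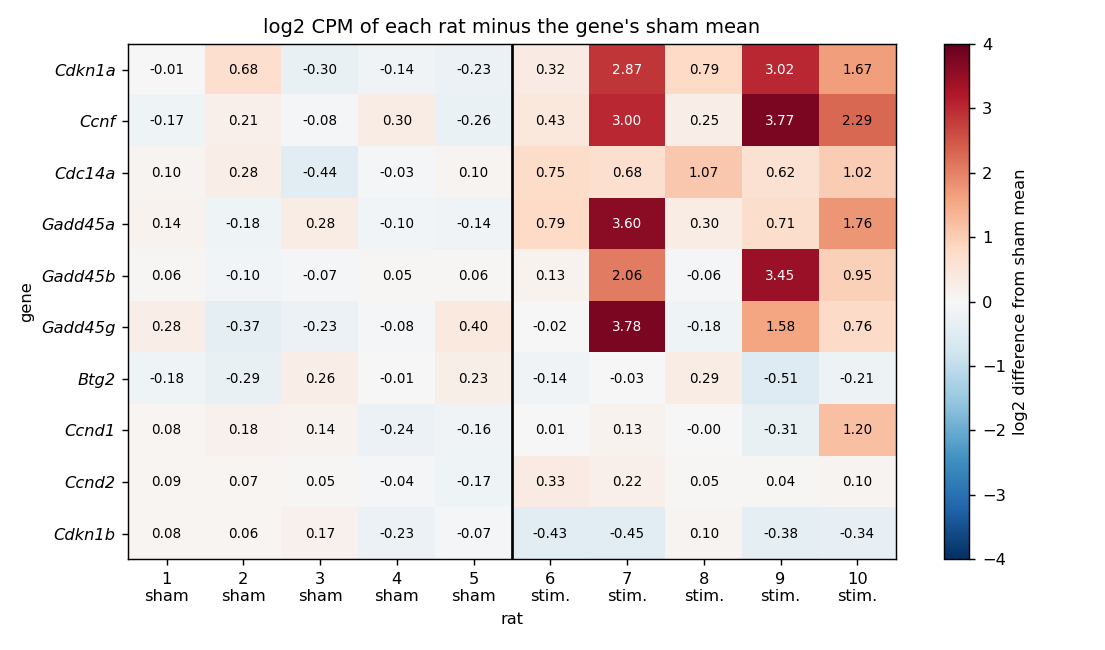
Difference of the log2 CPM of each rat (columns) from the gene's sham mean (rows are the 10 genes); the number in a cell is the value, in red above and in blue below the sham mean. Rat 7 has the deepest values for Gadd45a (3.60) and Gadd45g (3.78), rat 9 for Cdkn1a (3.02), Ccnf (3.77) and Gadd45b (3.45), and rats 6 and 8 stay within 1.07 of the sham mean for every gene.

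Cdkn1b encodes p27, the inhibitor that keeps resting cells from re-entering the cycle, and its values went the other way from those of Cdkn1a. They were 19.9, 19.7, 21.2, 16.0 and 17.9 CPM in sham rats 1 to 5 and 13.9, 13.8, 20.2, 14.4 and 14.9 CPM in stimulated rats 6 to 10. Rats 6, 7, 9 and 10 lay together below every sham rat, whereas rat 8 was among the sham animals. The sham mean was 18.9 ± 2.0 CPM and the stimulated mean 15.4 ± 2.7 CPM, a log2 fold change of −0.30 (SE 0.13, 95% interval −0.58 to −0.01). The adjusted p of the edgeR test was 0.482, and the exact permutation p was 0.0556. The unadjusted edgeR p was under 0.05 with all rats and was not in 7 of the 10 fits that left out 1 animal (sham rats 1, 2 and 3 and stimulated rats 6, 7, 9 and 10).

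Btg2 belongs to the BTG/TOB family, which binds the CCR4-NOT deadenylase and slows proliferation, and it is known as an immediate early gene. It had 14.2, 13.2, 19.4, 16.1 and 19.0 CPM in sham rats 1 to 5 and 14.7, 15.9, 19.8, 11.3 and 14.0 CPM in stimulated rats 6 to 10. The groups overlapped over most of their range, and rat 9, the highest animal for Cdkn1a, was the lowest here. The log2 fold change was −0.12 (SE 0.16, 95% interval −0.46 to 0.22, adjusted p = 0.841, edgeR). The upper bound of this interval lies below the lower bounds of the 3 Gadd45 genes. All these intervals come from the same rats, and the difference between the genes was not tested.

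Cyclins D1 and D2 carry the signal of growth factors to the kinases CDK4 and CDK6. Ccnd1 had 40.8, 43.9, 42.6, 32.8 and 34.7 CPM in sham rats 1 to 5 and 38.9, 42.3, 38.7, 31.3 and 89.3 CPM in stimulated rats 6 to 10. Rat 10 alone was outside the range of the sham animals on the high side, and rat 9 was just below it. The log2 fold change was 0.31 (SE 0.23, 95% interval −0.20 to 0.81; adjusted p = 0.685, edgeR), and it was −0.04 without rat 10. Ccnd2 had 38.2, 37.5, 37.0, 34.8 and 31.8 CPM in sham rats and 44.9, 41.6, 36.9, 36.7 and 38.3 CPM in stimulated rats 6 to 10. Rats 6, 7 and 10 were above all sham animals by small amounts and rats 8 and 9 were among them. The log2 fold change of Ccnd2 was 0.15 (SE 0.09, 95% interval −0.05 to 0.35; adjusted p = 0.615, edgeR).

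Of the 7 genes tested, 0 had an adjusted p under 0.05, where 0% of all features did. At an unadjusted p under 0.05 in the edgeR test, 3 of the 7 were higher in stimulated rats (Gadd45a, Gadd45b and Gadd45g), against 6.7% of all features, and 1 of the 7 was lower (Cdkn1b), against 3.16%. The 7 were chosen with earlier results of these data known, so such counts are no independent evidence. With the likelihood ratio test of edgeR, which ignores part of the uncertainty in the spread, Gadd45a (adjusted p = 0.0381) and Gadd45b (adjusted p = 0.0492) passed over all features, and with DESeq2 none of the 7 did. Of all 10 genes, 8 had a positive log2 fold change, against 52.2% of features, a count that includes the 3 picked for it. Among the 7 genes not picked, the groups did not overlap for 1, Gadd45a, higher in stimulated rats, where 0.695% of features were higher without overlap. None of the 7 was lower without overlap, against 0.597% of features. Cdc14a, picked for its rise, also did not overlap, from which nothing is read. Without rat 8, 2 of the 7 (Gadd45a and Gadd45b) were higher without overlap, against 1.78% of features under the same omission, and 1 (Cdkn1b) was lower, against 1.57%. Without rat 7, 2 of the 7 tested genes kept an unadjusted p under 0.05, Gadd45a and Gadd45b.

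**Figure D3:**
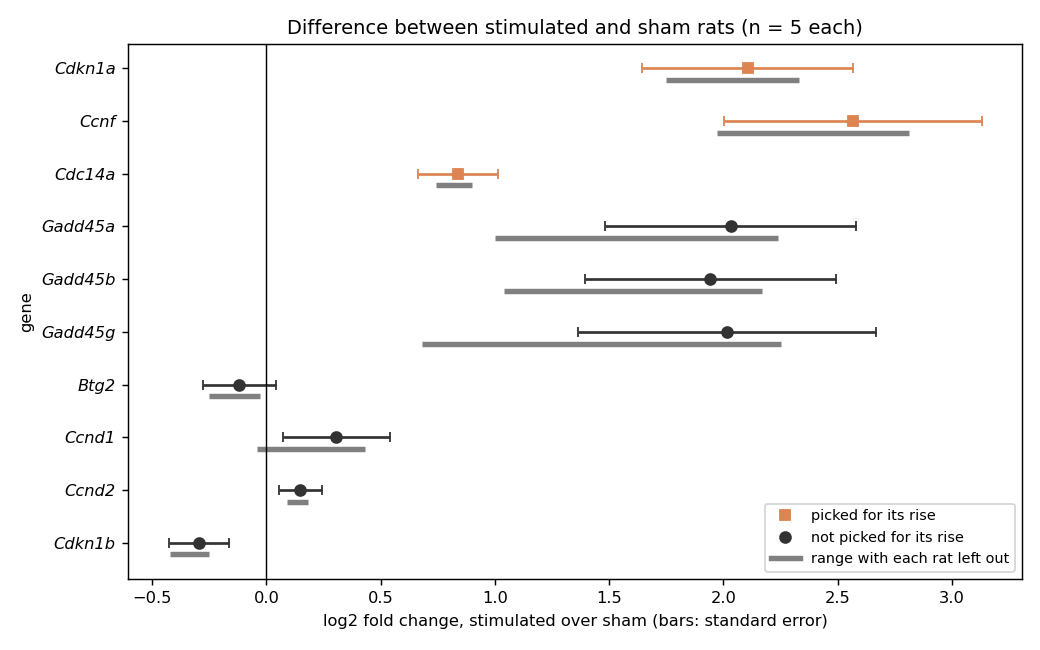
Log2 fold change of stimulated over sham rats for the 10 genes (points, n = 5 each) with bars of 1 SE, and in grey the range obtained when each rat was left out in turn; squares are the 3 genes picked for their rise. The grey range of Gadd45g reaches down to 0.68 and that of Gadd45a to 1.00, that of Ccnd1 crosses 0, and that of Cdc14a runs only from 0.74 to 0.90.

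Stimulated animals were ordered differently from gene to gene. Rat 9 was first for Cdkn1a, Ccnf and Gadd45b, rat 7 for Gadd45a and Gadd45g, rat 8 for Cdc14a, Btg2 and Cdkn1b, rat 10 for Ccnd1 and rat 6 for Ccnd2. Rat 10 was above the highest sham value for 8 of the 10 genes, rat 7 for 7, rat 9 for 6, rat 6 for 5 and rat 8 for 4. In multiples of the sham mean, rat 9 had 7.99 for Cdkn1a, 13.9 for Ccnf and 11.04 for Gadd45b and 1.64 for Gadd45a, whereas rat 7 had 12.3 for Gadd45a, 13.8 for Gadd45g, 7.23 for Cdkn1a and 4.21 for Gadd45b. Gadd45a and Gadd45b were therefore highest in different animals.

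Genes with the most similar course over the 10 rats were looked for among 10477 with a mean of at least 2 CPM, as the smallest root mean square difference of log2 CPM after each gene was set relative to its own sham mean. Cdkn1a was closest to the chromatin remodelling factor Baz1a (0.31), the co-chaperone Bag3 (0.33) and the repressor Nfil3 (0.41). Ccnf was also closest to Baz1a (0.31), then to the cyclooxygenase Ptgs2 (0.31) and the neuronal pentraxin Nptx2 (0.34). Gadd45b was closest to Pdp1 (0.24), Gpat3 (0.25) and Klf10 (0.25). Gadd45a was closest to the sphingosine phosphate receptor S1pr3 (0.30), with the matrix protein Tnc (0.34) among the next, and Gadd45g to the membrane protein Emp1 (0.38), the hyaluronan receptor Cd44 (0.39) and S1pr3 (0.40). Cdc14a was closest to the decoy receptor Tnfrsf11b (0.23), Tm4sf1 (0.24) and the tropomyosin Tpm2 (0.25). These distances describe the same 10 libraries and were not tested.

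The other genes of the cycle and of stress responses were read from 12 lists, given here as counts at an unadjusted p under 0.05 in the edgeR test, since 0 of their genes had an adjusted p under 0.05. Over all 12 lists, 32 of 164 genes tested were higher (19.5%) and 4 lower (2.44%), with a median log2 fold change of 0.10. Of all features, 6.7% were higher and 3.16% lower at that threshold, and the counts of each list below stand against these shares. Of these 32, 16 belonged to the list of activity-dependent transcription factors. The lists of cycle genes proper had medians close to that of all features.

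Among the factors that drive division, 2 of 17 other cyclins were higher and 0 lower, with a list median of 0.15. These were Ccnh, a partner of the CDK-activating kinase (log2 fold change 0.37, SE 0.14), and Ccne1, the cyclin of entry into DNA synthesis (0.33, SE 0.15). Of 18 cyclin-dependent kinases, Cdk12 (0.76, SE 0.21) and Cdk8 (0.31, SE 0.12), both kinases of transcription, were higher and 0 were lower, with a median of 0.10. Of 11 RB and E2F genes, Rb1 (0.45, SE 0.17) and Lin54 (0.37, SE 0.16) were higher and E2f1 was lower (−0.52, SE 0.23), with a median of 0.06. Of 19 genes of replication and proliferation, 0 were higher and 1 was lower, the mitotic factor Foxm1 (−0.58, SE 0.20), with a median of −0.09. Mki67, the usual label of dividing cells, was 3.15 ± 1.39 CPM in the sham and 3.53 ± 1.90 CPM in the stimulated group; it falls outside the rule for named genes and was added with its values known.

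Among mitotic kinases and phosphatases with the CDC14 and CDC25 families, 3 of 14 were higher and 1 was lower, with a median of 0.13. Plk3, a stress-responsive polo-like kinase, had 2.64 to 3.66 CPM in sham rats and 3.94, 19.5, 2.11, 33.0 and 8.26 CPM in stimulated rats 6 to 10, the order of animals seen for Cdkn1a at its upper end, with a log2 fold change of 2.04 (SE 0.57). Rat 8 was below all sham rats for Plk3. Cdc25b, the phosphatase that switches on mitotic kinase, had 9.93 to 13.7 CPM in sham rats. Stimulated rats had 8.91, 8.96, 8.94, 5.76 and 7.17 CPM, all below the sham animals, with a log2 fold change of −0.57 (SE 0.16). Of all features, 0.597% were lower without overlap, and Cdc25b was named here for its low p. Cdc14b, the paralogue of Cdc14a, was 48.8 ± 12.3 CPM in the sham and 63.2 ± 11.1 CPM in the stimulated group (0.37, SE 0.16).

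Cyclin F marks proteins for degradation, and of 8 of its known substrates 0 were higher and 2 were lower at the level of mRNA, Fzr1 (−0.30, SE 0.11) and E2f1, with a median of −0.13. Fzr1, an activator of the anaphase-promoting complex, had 40.9 to 53.7 CPM in sham rats and 29.3 to 40.0 CPM in stimulated rats. The groups did not overlap, where 0.597% of all features were lower without overlap, but rat 8 (40.0 CPM) was close to sham rat 3 (40.9 CPM). Among 20 genes of that complex and of SCF ligases, Fbxw7 was higher (0.46, SE 0.19) and Fzr1 lower, with a median of 0.00. Of the other inhibitors of cyclin-dependent kinases, 0 of 5 were higher or lower, and the most abundant were Cdkn2d (−0.06, SE 0.15) and Cdkn2c (0.03, SE 0.25).

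Of 16 partners of the GADD45 proteins and stress kinases, 2 were higher and 0 lower, with a median of 0.11. They were Ppp1r15a, also called Gadd34, which restores translation after stress (0.62, SE 0.17), and Map2k3, which activates p38 (0.82, SE 0.31). Of 10 BTG/TOB genes and CCR4-NOT subunits, the deadenylase Cnot6l was higher (0.59, SE 0.24) and 0 were lower, with a median of 0.02. Of 13 genes of quiescence and the FOXO pathway, 3 were higher and 0 lower with a median of −0.06: Klf10 (1.87, SE 0.49), Irs2 (0.90, SE 0.35) and Klf9 (0.35, SE 0.16). Klf10, a growth-inhibitory factor, had 18.3 to 28.1 CPM in sham rats and 27.7, 95.2, 21.8, 211 and 58.0 CPM in stimulated rats, so that rats 9, 7 and 10 led as for Gadd45b.

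**Figure D4:**
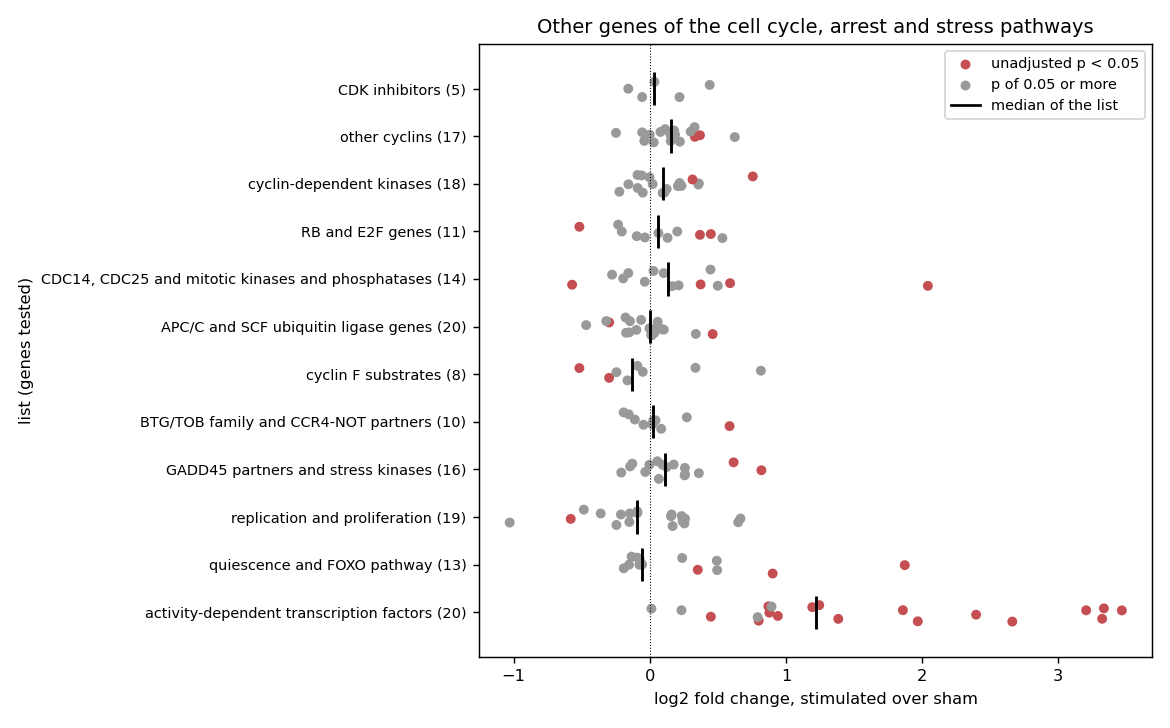
Log2 fold change, stimulated over sham (horizontal axis), of the genes of 12 lists (rows, with the number of genes tested); points are genes, red where the unadjusted p of the edgeR test was under 0.05, and black bars are list medians. Medians of the cycle and stress lists lie between −0.13 and 0.15, and that of the activity-dependent transcription factors lies at 1.22.

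The list of activity-dependent transcription factors, which also holds Arc and Ier3 although they are not such factors, had the highest count of the 12. In it 16 of 20 genes were higher, Arc among them, and 0 lower, all 20 had a positive log2 fold change, and the median was 1.22. That list is known from earlier results of these data and is no independent evidence. Fos had 3.26 to 5.32 CPM in sham rats and 5.61, 106, 5.24, 50.3 and 61.7 CPM in stimulated rats 6 to 10 (3.47, SE 0.69), so rats 7, 9 and 10 were high and rats 6 and 8 were close to the sham animals. Fosb (3.33, SE 0.80) was highest in rat 9 at 214 CPM and Egr2 (3.32, SE 0.79) also in rat 9 at 31.0 CPM. The same 3 rats were the highest for Cdkn1a, Ccnf, Gadd45b and Gadd45g.

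The summed markers of endothelial cells and of astrocytes were above all sham rats in rats 7, 9 and 10, in part through single genes named below. A changed number of cells of a type and a changed amount of RNA per cell cannot be told apart in bulk tissue. The summed level of 14 endothelial markers was 371 to 394 CPM in sham rats. In stimulated rats 6 to 10 it was 408, 552, 471, 481 and 690 CPM, with no overlap, where 0.695% of single features were higher without overlap. The lack of overlap rested on Slc2a1, at 101 to 122 CPM in sham rats and 304 CPM in rat 7. With Slc2a1 taken out, the sum of rat 7 fell below those of all sham rats. Of the 14 markers, 12 had a positive log2 fold change, against 52.2% of features. An unadjusted p under 0.05 in the edgeR test was found for 7, all higher, against 6.7% of features. Slc2a1 and Cldn5 were the most abundant. The sum of 12 astrocyte markers, led by Gfap and Glul, was 6114 to 6957 CPM in sham rats and 6371, 11880, 6848, 7499 and 10647 CPM in stimulated rats, with 9 of the 12 positive. Its highest animal was rat 7, as for Gadd45a and Gadd45g, and the next was rat 10, as for Gadd45a. That order rested on Gfap. With Gfap taken out, the sum of rat 7 was below those of rats 8 and 9, and that of rat 10 was below that of sham rat 1. The median log2 fold change of the 12 markers was 0.14. Gfap was 6469 CPM in rat 7 and 5396 CPM in rat 10, the animal with the high Ccnd1 value, against 1327 to 1927 CPM in sham rats.

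For the remaining lists the groups overlapped, and values are again the range of the sum in sham and then in stimulated rats, with the number of markers whose log2 fold change was positive. The sum of 13 microglial markers, Csf1r among the most abundant, was 490 to 592 CPM in the sham and 521 to 774 CPM in the stimulated group, with 11 of 13 positive and rat 7 highest. The sum of 12 oligodendrocyte markers, Mbp among the most abundant, was 2982 to 4267 CPM and 2394 to 4046 CPM, with 0 of 12 positive, and that of 7 precursor markers, led by Olig1 and Sox10, was 329 to 401 CPM and 245 to 386 CPM, with 1 of 7 positive. Neuronal markers, led by Nefl and Eno2, summed to 5024 to 5453 CPM in the sham and 4885 to 5710 CPM in the stimulated group, with 5 of 11 positive. Dentate granule cell markers, led by C1ql2 and C1ql3, gave 388 to 478 CPM and 259 to 492 CPM with the lowest sum in rat 7 (2 of 7 tested positive), and CA3 markers, led by Nptx1 and Cpne4, gave 1940 to 2279 CPM and 1614 to 2160 CPM (3 of 6 tested positive). Progenitor and neuroblast markers, led by Tubb3 and Stmn1, gave 774 to 821 CPM and 717 to 827 CPM with 7 of 14 positive. Tubb3 alone averaged 434 CPM, so this sum says little of the other markers. At an unadjusted p under 0.05 in the edgeR test, 1 of the 14 was higher and 1 lower, against 6.7% and 3.16% of all features. They were Sox11 (3.08, SE 0.79, highest in rat 9 at 33.5 CPM) and Neurod1 (−0.76, SE 0.28), named outside the rule with their values known. Choroid plexus markers, led by Ttr and Aqp1, gave 4.67 to 20.6 CPM and 8.78 to 35.8 CPM with 5 of 7 tested positive. No defining marker was at 0 in all libraries, and Tdo2, Lct, Iyd, Kl, Otx2 and Slc4a5 were under 0.5 CPM on average. The leading markers of granule and CA3 cells were present in all libraries, and the part of any cell type in the differences of the 10 genes was not tested.

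**Figure D5:**
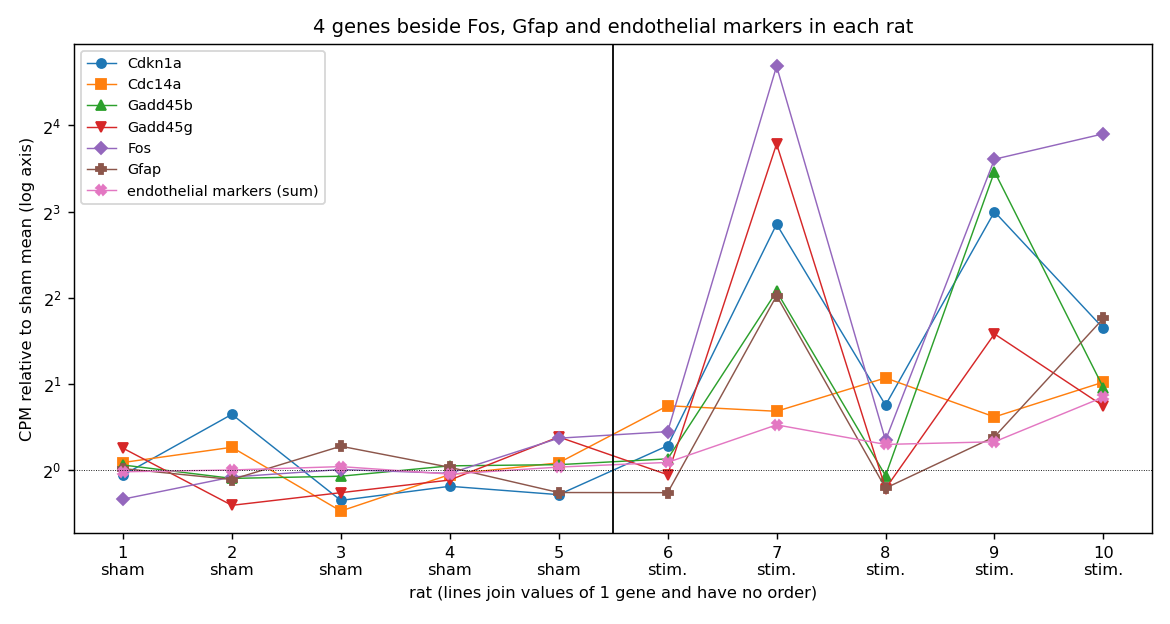
CPM of 4 of the genes, of Fos, of Gfap and of the summed endothelial markers in each rat, relative to the sham mean, on a log2-spaced axis; lines join the values of 1 gene and imply no order of rats. Cdkn1a, Gadd45b, Gadd45g and Fos have their 3 highest values in rats 7, 9 and 10, and for Cdkn1a rat 8 (1.68 times the sham mean) also lies above the sham rats, Gfap is high in rats 7 and 10, and Cdc14a is between 1.53 and 2.10 times the sham mean in each stimulated rat.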

How the data were processed

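Poly-A mRNA of 5 sham and 5 stimulated rats was sequenced in single reads of 36 cycles. The deposited values are raw counts per RefSeq transcript. The authors aligned reads to RN4 with BWA 0.5.9 and counted them with their own script, per the study's methods on the Ensembl 66 annotation, although rows carry RefSeq identifiers. The use of strand and the handling of shared reads were not stated. The row of unaligned reads (32.01% to 45.14% per library) was set aside. Symbols came from the RefSeq GRCr8 table by transcript identifier, and no genome positions of RN4 were used.

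Groups came from the treatment labels. The study's methods list 1 stimulated animal fewer than the labels, so all 10 were used and each was left out in turn. Features with a summed count under the 30th percentile (46 counts) were left out, following the study. The test was the quasi-likelihood test of edgeR 4.0.16 (R 4.3.3) on counts with TMM factors, no covariate and Benjamini-Hochberg adjustment over 22447 features. All adjusted p-values come from it unless another tool is named. CPM used TMM-scaled library sizes. Rats are separate animals. Alternatives were other scaling factors and filters, DESeq2 1.42.0, limma-voom (limma 3.58.1), the edgeR likelihood ratio test, adjusted deviances, summed rows per symbol, exact permutation tests (scipy 1.17.1) and the omission of each rat. The fits were tested on simulated data.

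The 10 genes, the lists and the tests were chosen with earlier results of these data known. Genes named beside the 10 were, per pathway list, up to 3 with the lowest unadjusted p under 0.05 or otherwise the 2 most abundant, per marker list the 2 most abundant and any under 0.5 CPM, and per gene the 3 most similar in course. Some genes under this rule, and 1 list, are not reported here. For Ccnf, Cdc14a, Gadd45a and Gadd45b the counting error was of the size of the spread between sham rats. Plots were drawn with matplotlib 3.10.9.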

Additional observations from a re-analysis of the deposited data

Results flagged for a closer look

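In 20 groups of 5 rats (10 genes, sham and stimulated), the gap from an end value to its neighbour was compared with the range of the group. By this measure 5 groups exceeded the 95% limit of Dixon's test for 5 values (0.71). About 1 in 20 would exceed it if values were normally distributed and groups independent. Linear CPM was used and the groups share the same 10 rats, so that rate is a rough guide only. Gaps on the log2 scale were not examined. Cdkn1a in sham rat 2 was 6.64 CPM, with the next sham animal at 4.07 CPM and a gap of 0.774 of the range. Gadd45a in stimulated rat 7 was 39.9 CPM against 11.1 CPM in the next animal (0.801 of the range). Gadd45g in the same rat was 53.2 CPM against 11.5 CPM (0.836). Ccnd1 in stimulated rat 10 was 89.3 CPM against 42.3 CPM (0.811). Cdkn1b in stimulated rat 8 was 20.2 CPM against 14.9 CPM (0.832), close to the sham mean of 18.9 CPM.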

How the results depend on the processing

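At an adjusted p under 0.05, 0 features passed in the quasi-likelihood test, 33 with DESeq2 and 119 with the edgeR likelihood ratio test, and the cause was not tested. Of the 7 genes tested, 4 had an unadjusted p under 0.05, and 1 (Gadd45a) with the exact permutation test, whose smallest p is 0.00794. With each rat left out that count ran from 2 (without stimulated rat 7, where Gadd45g and Cdkn1b were lost) to 4, and that of all 10 genes without overlap between groups, picked genes included, from 2 to 5 (without rat 8). Ccnd1 turned to −0.04 without rat 10, with a range of −0.04 to 0.43 over the omissions. Cdkn1b was not under 0.05 with library size alone, with the likelihood ratio test or without 1 of 7 rats, and Gadd45g was not with limma-voom. Of 140 fold changes of the 7 tested genes under the alternatives, 137 kept direction and side of the adjusted p of 0.05, 2 passed it and 1 was reversed. Outside DESeq2 and the likelihood ratio test no feature at all passed that threshold. The side was therefore nearly fixed beforehand, and the count says little of the unadjusted p. All 60 of the 3 picked genes, which have no test, kept their direction, but they were picked for that direction, so nothing is read from it. Scaling moved the median of all features by less than 0.1 on the log2 scale and turned no direction. No paired analysis was possible because rats carry numbers of their own and share none between groups. With 5 rats a group, differences of the size seen for Ccnd2 or Btg2 were not resolved.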
